A study of Rattus norvegicus with 31 samples.

Results

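The mitochondrial ribosomal protein genes described here are all genes of the deposited table whose symbol is Mrpl or Mrps followed by a number and at most 1 letter. They are 70 of 11289 genes listed, and all 70 were among the 10082 genes left for testing after a filter on low counts. By general knowledge of their products, 44 belong to the large subunit, Mrps18a and Mrps30 among them despite their symbols, and 25 to the small subunit. The remaining gene, Mrps36, carries a ribosomal symbol but is listed by RefSeq as Kgd4, since its product is a part of the 2-oxoglutarate dehydrogenase complex. The rows mrpl9, mrpl11 and mrpl24 differ from the rule only in letter case and were left outside it. None of these 3 passed the edgeR test described below in any comparison.

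RNA came from the gastrocnemius, a calf muscle, of 31 female Sprague Dawley rats fed chow and aged 7 months. There were 8 controls and 7 Ucp1 knockouts held at room temperature, and 8 controls and 8 Ucp1 knockouts held at 4 °C, for 14 days in each case. Ucp1 encodes the uncoupling protein by which brown fat mitochondria make heat, so the design asks how muscle responds to cold with and without that protein. The labels do not describe the knockout allele, and Ucp1 itself is not analysed here. Each rat gave 1 library and has a number of its own from 1 to 31, by which the libraries are named below.

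Mitochondria keep a small genome that encodes a few subunits of the respiratory chain and of ATP synthase, and they translate those mRNAs on ribosomes of their own. The RNA of this ribosome is made inside the organelle, while all of its proteins are encoded in the nucleus, made in the cytosol and imported. Many of the proteins descend from the bacterial ribosome, and the others are found only in mitochondrial ribosomes. Skeletal muscle relies on this machinery for oxidative capacity, and inherited defects of several of the proteins cause disease of heart, muscle or brain.

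The libraries held 6.56 to 11.9 M counts, of which the 70 genes took 42418 to 92476, or 0.605% to 0.797%. The markers of muscle fibres were abundant in every library, with a summed level of 86848 to 173735 CPM (counts scaled to the size of the library) for the 8 of 9 measured. Controls 1 and 2 at room temperature stood apart from the other 6 rats of their group. Both lay above, or both below, all 6 others for 36 of the 70 genes (51.4%) and for 46% of all genes tested. They were kept in the main comparisons, and calls or directions that change without them are given below. In bulk tissue, fewer cells of a type and less RNA per cell cannot be told apart.

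The 70 genes differed 623-fold in mean level over all libraries, although the ribosome holds most of their products in equal number. Levels are CPM after scaling by TMM, the trimmed mean of M values. Each transcript gives a tag near its 3′ end, so a level does not grow with transcript length. Such a count does not tell a gene of low level from one whose transcript ends elsewhere. The range is therefore one of counts and may differ from that of the mRNAs. The median gene had a mean of 59.0 CPM, 19 genes reached 100 CPM and 5 stayed under 10 CPM. The 6 highest genes, Mrpl15, Mrpl12, Mrpl18, Mrpl27, Mrps18b and Mrps35, supplied 37.5% of the summed level of 6952 CPM. Mrpl15, the uL15 protein, had the highest mean at 687 CPM, followed by Mrpl12 at 458 CPM and Mrpl18, the uL18 protein, at 437 CPM. Mrpl12 forms the flexible stalk that binds translation factors, and Mrpl10, the protein that holds the stalk to the ribosome, had a mean of 41.0 CPM. At the low end, Mrpl1 had a mean of 1.10 CPM, Mrps31 of 1.14 CPM and Mrpl40 of 2.03 CPM.

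**Figure D1:**
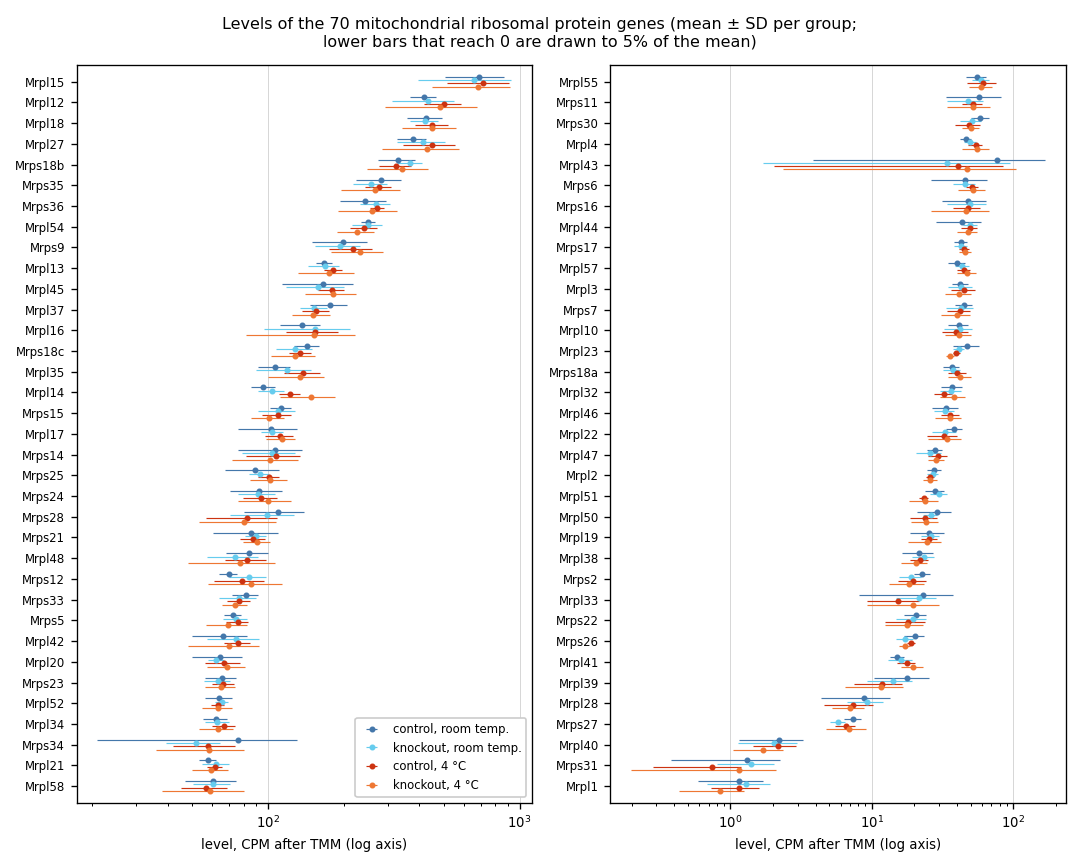
Mean level of each of the 70 genes in the 4 groups, in CPM after TMM on a log axis, with bars of 1 SD (n = 8, 7, 8 and 8 rats; where a lower bar would reach 0 it is drawn to 5% of the mean). The genes are ordered by mean level from Mrpl15 (687 CPM) to Mrpl1 (1.10 CPM), and the 4 group means of most genes lie close together beside that range.

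Both classes by origin spanned high and low levels. The classes were assigned by general knowledge, so the place of single genes in them is uncertain. Median means were 55.8 CPM for the 24 large subunit proteins of bacterial type and 48.7 CPM for the 20 found only in mitochondria. In the small subunit they were 79.5 CPM for 15 proteins of bacterial type and 63.2 CPM for 10 found only in mitochondria. The paralogues of bacterial S18 also lay apart from one another: Mrps18b had a mean of 339 CPM, Mrps18c of 134 CPM and Mrps18a, whose protein sits in the large subunit, of 39.1 CPM. Despite that descent, Mrps18a and Mrps18b were counted with the proteins found only in mitochondria, and Mrps18c with those of bacterial type. RefSeq names a pseudogene for 21 of the 70, among them Mrpl15, Mrpl1, Mrps18b and Mrps18c. How the counting split reads between such copies is not given in the sources used here, so the levels of these genes are uncertain. The spread between rats of a group was modest: the median coefficient of variation was 16.97% in room temperature controls, 16.7% in room temperature knockouts, 14.9% in cold controls and 23.3% in cold knockouts. The medians over all genes tested were 28.99%, 25.96%, 25.1% and 30.9% in the same order. Genes with few counts vary more, and the mean level of these 70 was not matched in that comparison.

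Cold moved few of these genes. By edgeR's quasi-likelihood test, with p-values adjusted over all 10082 genes and a threshold of 0.05, 0 of 70 passed in control rats, where 0.853% of all genes did. In knockout rats 1 of 70 passed, Mrpl14, where 1.38% of all genes did. Over the mean of both genotypes 2 of 70 passed, Mrpl14 higher and Mrpl51 lower, where 5.65% of all genes did. At an unadjusted p under 0.05 there were 5, 3 and 8 of the 70 in these 3 comparisons, where 14.2%, 14.3% and 19.5% of all genes were. DESeq2 called 0, 1 and 3 of the 70, and 2.03%, 2.91% and 7.04% of the genes it tested.

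Mrpl14 encodes uL14, a conserved protein on the face of the large subunit that meets the small subunit and a binding site of the assembly factor Malsu1. Its level in room temperature controls ran from 84.7 CPM through a median of 93.3 CPM to 119 CPM, and in cold controls from 109 through 121 to 146 CPM. In room temperature knockouts it ran from 88.1 through 104 to 125 CPM, and in cold knockouts from 113 through 139 to 227 CPM. The groups overlapped within each genotype: control 4 at room temperature (119 CPM) lay above 4 of the 8 cold controls, and knockout 12 at room temperature (125 CPM) above 2 of the 8 cold knockouts. The highest level of all was that of cold knockout 28.

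Mrpl14 rose by 0.52 ± 0.12 (SE; adjusted p = 0.0229 by edgeR) on the log2 scale in knockouts, from 104 ± 12.4 to 148 ± 36.6 CPM (SD, n = 7 and 8). In controls the change was 0.36 ± 0.12 without passing (adjusted p = 0.133), from 95.8 ± 10.4 to 123 ± 11.7 CPM. Over the mean of both genotypes it rose by 0.44 ± 0.083 (adjusted p = 0.00135), a 1.35-fold change. The difference between the genotypes in this response was 0.16 ± 0.17 (adjusted p = 0.907), so the call in knockouts alone does not show a response limited to them. The call in knockouts ended without room temperature knockout 14 (0.46, adjusted p = 0.0840), without room temperature knockout 15 (0.47, adjusted p = 0.0529) and in a fit of the 15 compared libraries alone (0.52, adjusted p = 0.138). The call over both genotypes remained in each of the 31 fits that left out 1 library, with adjusted p up to 0.00448.

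Mrpl51 encodes a large subunit protein found only in mitochondrial ribosomes, and it is a gene of low to middling level. It ran from 23.1 through a median of 26.5 to 34.4 CPM in room temperature controls and from 20.95 through 23.5 to 26.8 CPM in cold controls. In knockouts it ran from 25.1 through 28.9 to 35.996 CPM at room temperature and from 16.8 through 24.2 to 33.9 CPM in the cold. Within each genotype the 2 groups overlapped. Mrpl51 fell by 0.29 on the log2 scale over both genotypes (SE 0.088; adjusted p = 0.0435 by edgeR), while neither genotype passed by itself (-0.26 in controls, adjusted p = 0.338, and -0.33 in knockouts, adjusted p = 0.201). The call was close to the threshold and ended without any of 15 libraries: controls 4, 5 and 6 and knockouts 12 and 14 at room temperature, cold controls 16, 17, 19, 21, 22 and 23, and cold knockouts 25, 26, 27 and 30. Adjusted p ran from 0.0111 to 0.0695 over the 31 such fits.

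**Figure D2:**
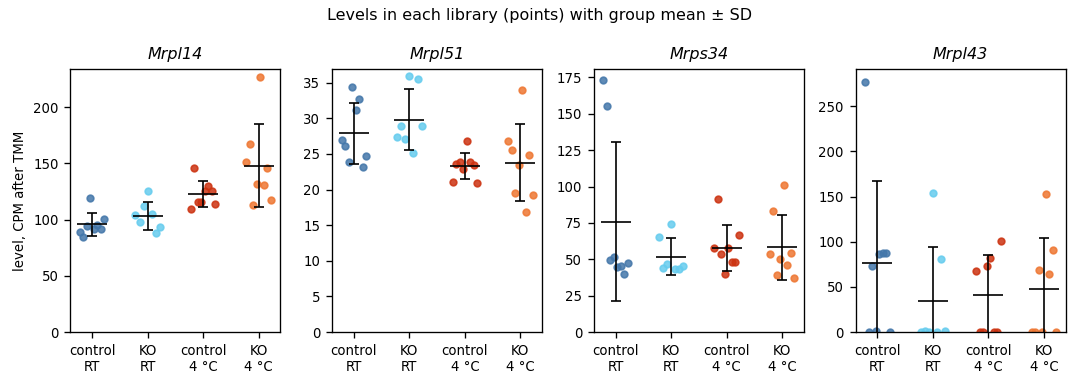
Level of Mrpl14, Mrpl51, Mrps34 and Mrpl43 in each library (points), in CPM after TMM, with the mean and SD of each group of 7 or 8 rats in black. The group mean of Mrpl14 is higher in the cold in both genotypes with overlap between groups, controls 1 and 2 at room temperature hold the 2 highest points of Mrps34, and Mrpl43 splits into libraries near 0 and libraries at 64.0 CPM or more.

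The promoters of Mrpl14 and Mrpl51 are shown because these are the genes that passed the test, and those of Mrps18b and Mrpl46 because they carry the short motifs searched for. Each runs from 250 bases before to 50 bases after a start that RefSeq's table gives on build GRCr8, 5′ to 3′ on the strand of the gene. That start is the outer end of the annotated gene for Mrpl51 and Mrpl46, lies 28 bases inside it for Mrps18b and 1478 bases inside it for Mrpl14. Motif matches are in capitals. The intervals are chr9:22811184-22811483 on the minus strand for Mrpl14, chr4:159677738-159678037 on the plus strand for Mrpl51, chr20:2842756-2843055 on the plus strand for Mrps18b and chr1:142116981-142117280 on the minus strand for Mrpl46. The counts themselves were made on another build, Rnor 6.0.
Mrpl14: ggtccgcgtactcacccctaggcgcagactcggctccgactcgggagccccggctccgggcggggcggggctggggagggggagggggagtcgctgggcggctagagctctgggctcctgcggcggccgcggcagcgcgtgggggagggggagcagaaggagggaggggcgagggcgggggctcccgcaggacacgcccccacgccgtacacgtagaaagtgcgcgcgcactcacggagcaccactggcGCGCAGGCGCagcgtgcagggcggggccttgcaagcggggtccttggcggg
Mrpl51: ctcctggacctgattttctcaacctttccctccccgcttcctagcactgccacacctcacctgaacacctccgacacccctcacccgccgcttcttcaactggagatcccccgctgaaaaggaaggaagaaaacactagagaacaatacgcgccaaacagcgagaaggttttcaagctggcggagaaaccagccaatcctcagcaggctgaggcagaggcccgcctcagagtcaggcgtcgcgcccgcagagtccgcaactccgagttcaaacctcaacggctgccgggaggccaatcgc
Mrps18b: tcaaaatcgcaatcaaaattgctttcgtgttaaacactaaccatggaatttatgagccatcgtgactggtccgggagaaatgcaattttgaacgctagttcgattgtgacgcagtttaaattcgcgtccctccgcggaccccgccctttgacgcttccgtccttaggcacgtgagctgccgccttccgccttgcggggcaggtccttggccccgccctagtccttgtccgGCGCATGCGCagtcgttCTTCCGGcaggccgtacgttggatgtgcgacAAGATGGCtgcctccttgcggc
Mrpl46: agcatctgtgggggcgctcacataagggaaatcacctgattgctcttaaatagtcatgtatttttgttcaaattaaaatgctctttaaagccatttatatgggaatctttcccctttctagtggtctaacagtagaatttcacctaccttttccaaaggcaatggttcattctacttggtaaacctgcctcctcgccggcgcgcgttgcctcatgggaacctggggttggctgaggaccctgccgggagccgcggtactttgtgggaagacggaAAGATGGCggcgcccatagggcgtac

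The motifs were GCGCA, any base and GCGC for NRF1, CCGGAAG for the ETS family that includes GABPA, AAGATGGC for YY1 and TCAAGGTCA for the ERR receptors, each on both strands. NRF1, GABPA, YY1 and the ERR receptors are the regulators best known at nuclear genes for mitochondrial proteins. The promoter of Mrps18b holds the first 3 of these motifs, with the YY1 letters just after that start. The window of Mrpl14 holds the NRF1 letters across its start, that of Mrpl46 the YY1 letters, and that of Mrpl51 none of the 4. RefSeq's table holds a promoter for 56 of the 70 genes, and the first listed was used where a gene has several. Its start was within 50 bases of the outer end of the gene for 40 of the 56 and further inside for 16. NRF1 letters occurred in 8 of the 56 (14.3%), ETS letters in 17 (30.4%) and YY1 letters in 12 (21.4%), and 29 (51.8%) held at least 1 of the 3. Over the 8415 protein-coding genes with a promoter and a deposited row the shares were 10.2%, 17.9%, 5.66% and 29.4%. Over the first promoter of all 27457 genes in the table they were 4.71%, 9.22%, 3.44% and 15.5%. The ERR letters occurred in none of the 56 and in 0.226% of the protein-coding set. These are matches of letters and do not show that a factor binds.

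Mitochondrial ribosomal protein genes often lie head to head with another gene. By these starts, a gene on the opposite strand began within 1000 bases for 16 of the 56 (28.6%), against 16.8% of the protein-coding set. Mrpl46 and Mrps11 form such a pair, with these starts 234 bases apart. Their levels, with group means removed, had a correlation of 0.019 over the 31 libraries. Of 11 such members whose partner was tested, 0 had a partner that passed in the cold over both genotypes by edgeR, with 1 at an unadjusted p under 0.05, Pnpla7, the partner of Mrpl41 (-0.45 ± 0.19, adjusted p = 0.171). DESeq2 also called 0 of these partners. Of all genes 5.65% passed there by edgeR and 19.5% were under that p, and DESeq2 called 7.04%. Mrpl46 and Mrps11 are each other's partner, so both count among the 11. A count of 0 in so few genes cannot be told from those shares.

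The other 68 genes did not pass by edgeR in the cold in either genotype or over both, and DESeq2 called 1 of them, Mrpl23, over both (adjusted p = 0.0267). In control rats the 70 changes had a median of 0.014 on the log2 scale, with 36 above 0 and 34 below, and all genes tested had a median of -0.033. In knockouts the median was -0.0066, with 34 above 0 and 36 below, against 0.024 for all genes. Over both genotypes 35 genes lay above 0 and 35 below. The data bounded most changes rather than leaving them unknown: the 95% interval stayed within 1.5-fold in either direction for 52 of 70 genes in controls, for 56 in knockouts and for 61 over both genotypes.

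The classes by subunit and origin lay close to 0. Over both genotypes the median change was 0.053 for large subunit proteins of bacterial type, -0.047 for large subunit proteins found only in mitochondria, -0.017 for small subunit proteins of bacterial type and -0.057 for small subunit proteins found only in mitochondria. Of the 8 genes at an unadjusted p under 0.05 over both genotypes, 7 belong to the large subunit, or 15.9% of its 44, where 19.5% of all genes were. The nearest to passing after Mrpl14 and Mrpl51 was Mrpl23, which encodes the uL23 protein beside the exit of the nascent chain. Its change was -0.22 ± 0.072 (adjusted p = 0.0586), and without controls 1 and 2 at room temperature, which had its 2 highest levels, it was -0.14 ± 0.058 (adjusted p = 0.148). Mrpl41 stood at 0.25 ± 0.090 (adjusted p = 0.102) and Mrpl35, the bL35 protein, at 0.27 ± 0.11 (adjusted p = 0.139).

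**Figure D3:**
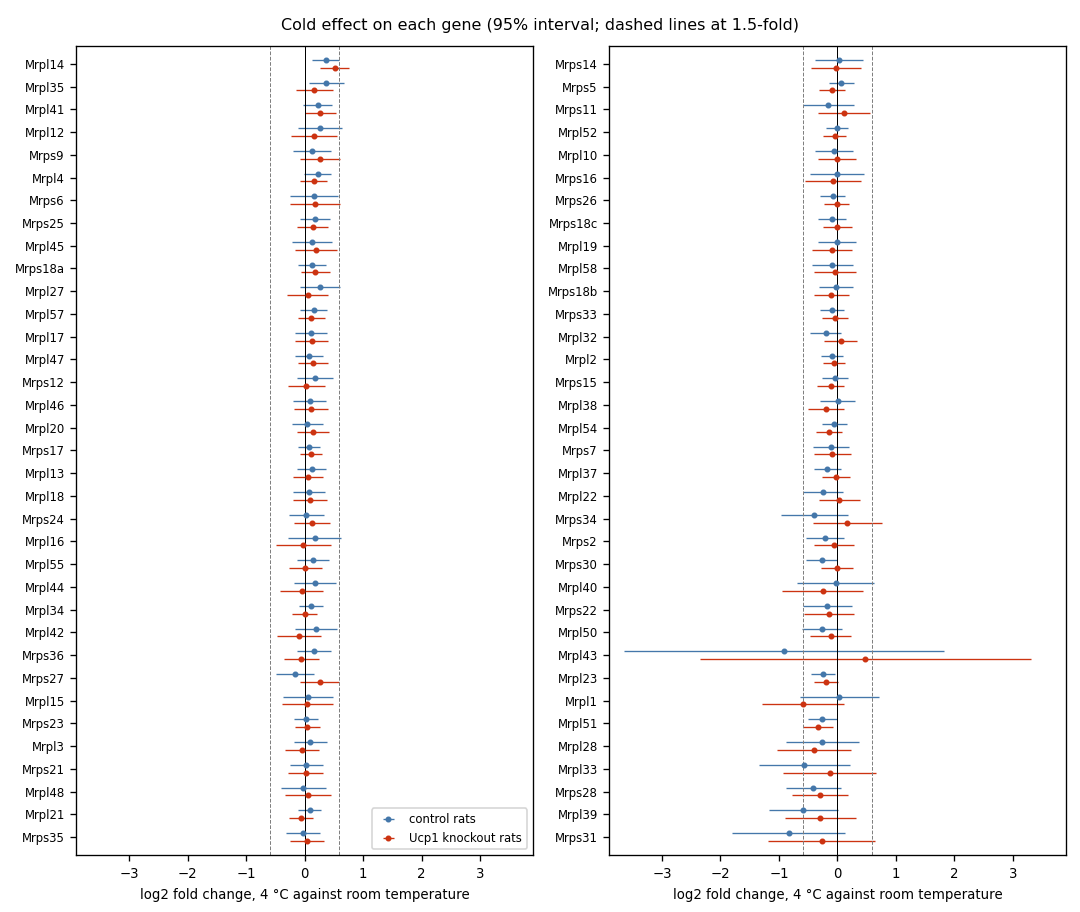
Cold effect on each of the 70 genes as log2 fold change of 4 °C against room temperature, with 95% intervals, in control rats (n = 8 and 8) and Ucp1 knockout rats (n = 7 and 8), ordered by the mean over both genotypes. Dashed lines mark 1.5-fold, Mrpl14 lies at the upper end, and the interval of Mrpl43 is far wider than those of the other genes.

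Genes with known clinical or enzymatic roles were among those with no detected change. Mrpl44, an RNase III-like protein of the large subunit whose loss causes cardiomyopathy in people, changed by 0.18 ± 0.17 in cold controls, or by -0.067 ± 0.11 without controls 1 and 2 at room temperature, and by -0.051 ± 0.18 in cold knockouts. Mrps22, mutated in a mitochondrial disease of infancy, changed by -0.17 ± 0.20 and -0.14 ± 0.21. Mrpl58, a peptidyl-tRNA hydrolase built into the large subunit, changed by -0.091 ± 0.17 and -0.035 ± 0.18, the first turning to 0.080 ± 0.17 without the same 2 controls. None of these reached an unadjusted p under 0.05. Mrps12, the homologue of the decoding protein uS12, changed by 0.18 ± 0.15 and 0.028 ± 0.16. Among the S18 paralogues over both genotypes, Mrps18a changed by 0.16 ± 0.085, Mrps18b by -0.065 ± 0.10 and Mrps18c by -0.050 ± 0.084. Mrps30, a large subunit protein despite its symbol, changed by -0.27 ± 0.13 in controls (adjusted p = 0.338) and by -0.010 ± 0.13 in knockouts. For the most abundant genes the cold change over both genotypes was 0.049 ± 0.15 for Mrpl15, 0.21 ± 0.14 for Mrpl12 and 0.087 ± 0.096 for Mrpl18. The least abundant were poorly resolved, at -0.55 ± 0.33 for Mrps31, -0.28 ± 0.24 for Mrpl1 and -0.14 ± 0.23 for Mrpl40. Mrps36 changed by 0.051 ± 0.10, or by -0.017 ± 0.092 without those controls.

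Loss of Ucp1 was not followed by a detected change in any of these genes. At room temperature 0 of 70 passed by edgeR and 0 by DESeq2, with 2 at an unadjusted p under 0.05, where 0% of all genes passed by edgeR and 7.06% were under that p. In the cold 0 of 70 passed by either tool, with 1 at an unadjusted p under 0.05, where 0.00992% of all genes passed by edgeR and 6.28% were under that p. The difference in cold response between genotypes gave 0 of 70 by either tool, with 0 at an unadjusted p under 0.05, where 0% of all genes passed by edgeR and 7.31% were under that p. Of the genes it tested, DESeq2 called 0.00886%, 0.0709% and 0.00886% in the same order. The median differences between knockouts and controls were -0.0080 at room temperature and -0.026 in the cold on the log2 scale, against -0.028 and 0.037 for all genes. The 95% interval stayed within 1.5-fold for 56 of 70 genes at room temperature, for 63 in the cold and for 38 for the difference in cold response.

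The 2 genes at an unadjusted p under 0.05 at room temperature lay below the median level of the 70. Mrps27, a pentatricopeptide repeat protein of the small subunit, ran from 6.19 to 8.83 CPM in room temperature controls and from 4.45 to 6.54 CPM in room temperature knockouts, a difference of -0.35 ± 0.16 (adjusted p = 0.698). Mrps26 ran from 17.4 to 26.7 CPM and from 12.4 to 20.3 CPM in the same groups, a difference of -0.22 ± 0.11 (adjusted p = 0.699), or of -0.12 ± 0.10 without controls 1 and 2. In the cold Mrpl14 was 0.27 ± 0.12 higher in knockouts than in controls without passing (adjusted p = 0.748).

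Mrpl43, which encodes a large subunit protein found only in mitochondria, split the libraries of every group into low and high, and was picked out after its values were seen. It stood between 0.0949 and 1.13 CPM in 16 libraries, from 1 to 12 counts each, and between 64.0 and 276 CPM in the other 15, from 481 to 2192 counts each. No library lay between. The high libraries were 5 of 8 room temperature controls, 2 of 7 room temperature knockouts, 4 of 8 cold controls and 4 of 8 cold knockouts, so each group held both kinds.

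Ordering the libraries by log2 level, the largest step between neighbours with at least 5 libraries on each side was 5.58 for Mrpl43. That is the largest such step among all 10082 genes tested, of which 4 reached 3 on that scale. The next largest among the 70 genes was 0.36, for Mrpl33. RefSeq's annotation has Mrpl43 overlapping Twnk, the gene of the mitochondrial DNA helicase, which lies beside it. Twnk showed no such split, with levels from 38.9 to 96.4 CPM and a largest step of 0.11. Because of the split, the cold effect on Mrpl43 was -0.91 ± 1.34 in controls (-0.47 ± 1.40 without controls 1 and 2) and 0.48 ± 1.39 in knockouts, and its difference between groups was not resolved. A tag count near the 3′ end does not tell, for example, a gene that is silent from a transcript that ends elsewhere. The cause of the low level in the 16 libraries was not tested.

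Controls 1 and 2 at room temperature were far from the rest for several of these genes. Mrps34, a small subunit protein found only in mitochondria, stood at 173 and 156 CPM in these rats and between 40.1 and 51.7 CPM in the other 6 of their group. In all 29 other libraries it stayed between 37.4 and 101 CPM. The cold change of Mrps34 in controls was -0.39 ± 0.28 with them and 0.32 ± 0.20 without them, and neither passed (adjusted p = 0.519 and 0.472). Mrps11 stood at 96.6 and 95.5 CPM in these rats against 38.5 to 50.1 CPM in the other 6.

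Several genes were low in the same rats. Mrpl33, the bL33 protein, stood at 2.40 and 4.28 CPM against 15.2 to 46.0 CPM, and Mrpl44 at 16.5 and 22.01 CPM against 49.4 to 53.3 CPM. Mrps6 stood at 18.03 and 18.4 CPM against 40.2 to 75.7 CPM. In all, 14 of the 70 genes were above and 22 below the other 6 rats in both. Without these libraries the same counts of genes passed in the cold, 0 in controls, 1 in knockouts and 2 over both genotypes, with Mrpl14 at 0.42 ± 0.085 (adjusted p = 0.00244) and Mrpl51 at -0.30 ± 0.091 (adjusted p = 0.0413) in the last. Of all genes then tested, 0.375%, 3.74% and 7.2% passed. Leaving them out gave 17 of the 70 genes the other sign in cold controls, where 20.4% of all genes turned, and 11 over both genotypes, where 13.1% did, none of them called with or without these rats. For the difference of knockouts from controls at room temperature 22 of the 70 turned, where 26.7% of all genes did. Among the most and least abundant genes over both genotypes, Mrpl15 went from 0.049 to 0.15 and Mrpl40 from -0.14 to -0.30, and neither passed.

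Many of these genes varied between rats along an axis on which all 4 groups were spread. The first principal component of log2 levels, computed from the other genes tested, held 35.5% of the variance. Scores below 0 occurred in 3 of 8 room temperature controls, 2 of 7 room temperature knockouts, 4 of 8 cold controls and 3 of 8 cold knockouts. Over the 31 libraries the correlation of a member's log2 level with the score ran from -0.92 for Mrpl15 to 0.94 for Mrpl10, with a median of -0.22. Totals ran from 8.03 to 11.9 M counts (median 10.2 M) in the 12 libraries below 0. In the 19 above they ran from 6.56 to 10.7 M (median 8.91 M), so the ranges overlapped. Whether depth goes with the score was not tested.

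Genes for proteins of the same ribosome went opposite ways on that axis, as genes in general did. Correlations below -0.7 were found for 16 of the 70 (22.9%) and above 0.7 for 11 (15.7%), while over all genes tested the shares were 9.58% and 16.2%. The share above 0.7 was thus close to that of all genes, and only the share below -0.7 was higher. At the negative end stood Mrpl15, Mrps23 (-0.87), Mrpl27 (-0.87), Mrpl58 (-0.87) and Mrpl16 (-0.86), and at the positive end Mrpl10, Mrps28 (0.88), Mrps22 (0.86), Mrps5 (0.82) and Mrps14 (0.81). Both ends hold proteins of both subunits. The stalk proteins were split too, with Mrpl12 at -0.69 beside Mrpl10 at 0.94. Within groups the correlations ran from -0.90 to -0.98 for Mrpl15 and from 0.93 to 0.99 for Mrpl10 (n = 8, 7, 8 and 8). That of Mrpl27 was -0.41 in room temperature controls and from -0.96 to -0.97 in the other groups. From cold control 17, at the lowest score, to cold knockout 31, at the highest, Mrpl15 went from 1149 to 507 CPM and Mrpl10 from 24.6 to 48.2 CPM.

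The summed level of the 70 genes ran from 6494 to 8775 CPM (median 7656) in the 12 libraries below 0. In the 19 above it ran from 5340 to 8008 CPM (median 6512), so the ranges overlapped. In each group the median was higher below 0 than above. It was 7283 against 6512 CPM in room temperature controls and 7901 against 6324 CPM in room temperature knockouts. In cold controls it was 7684 against 6873 CPM, and in cold knockouts 8288 against 6172 CPM. These differences were not tested. With group means removed, pairs of the 70 genes had a median correlation of 0.12 over the 31 libraries, from -0.93 to 0.94. These are descriptions of levels that share a library, and the correlations carry no test. A first component computed from all genes tested, the 70 included, also served as a covariate. With it, those of the 70 called in the cold over both genotypes rose from 2 to 5. Mrpl14 (0.40) and Mrpl41 (0.20) were higher, and Mrpl51 (-0.32), Mrpl23 (-0.23) and Mrps28 (-0.27) lower. Of all genes tested 12.6% were called in that fit, against 5.65% without the covariate.

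**Figure D4:**
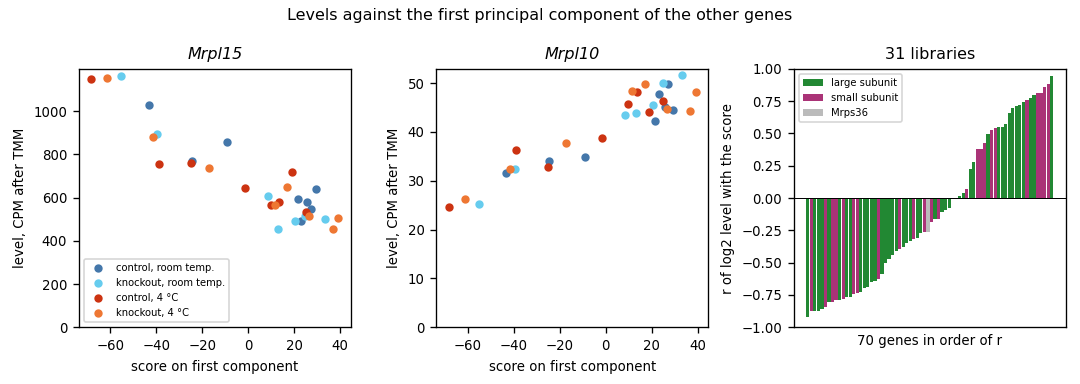
Level of Mrpl15 (left) and Mrpl10 (middle), in CPM after TMM, against the score of each of the 31 libraries on the first principal component of the other genes, coloured by group. Mrpl15 falls and Mrpl10 rises along the axis with all 4 groups spread over it, and the bars (right) give the correlation of each of the 70 genes with the score, from -0.92 to 0.94, in both subunits.

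In the lists of the machinery around the ribosome, only Gadd45gip1, Ngrn and Eral1 passed in the cold over both genotypes by edgeR. Of all genes tested 5.65% did. Over both genotypes in the cold, 1 of 4 measured ribosomal proteins with other symbols fell, Gadd45gip1, a large subunit protein, by 0.40 (SE 0.097, adjusted p = 0.00999 by edgeR). The mean levels of Gadd45gip1 were 133 and 128 CPM in room temperature controls and knockouts, and 103 and 94.2 CPM in cold controls and knockouts. The other 3 did not pass, Dap3, a GTP-binding small subunit protein, at 0.21 ± 0.084 (adjusted p = 0.139), Chchd1 at -0.051 ± 0.11 and Ptcd3 at -0.037 ± 0.11. Of 22 genes for ribosome assembly and rRNA modification, Ngrn, which helps to maintain the large rRNA, rose by 0.30 ± 0.073 (adjusted p = 0.0119). Eral1, the chaperone of the small subunit rRNA, fell by 0.41 (SE 0.11, adjusted p = 0.0263), and the other 20 did not pass. The call of Eral1 ended without controls 1 and 2 at room temperature (-0.30 ± 0.10, adjusted p = 0.0755), and Ptcd3 then stood at 0.092 ± 0.094.

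Over both genotypes no gene passed in the remaining lists of the pathway, by edgeR or by DESeq2, where 5.65% and 7.04% of all genes did. This held for 15 translation factors and mRNA-handling proteins, 15 mitochondrial tRNA synthetases and amidotransferase subunits, 15 genes for mitochondrial DNA upkeep, transcription and RNA processing, and 8 transcription regulators of mitochondrial genes. At an unadjusted p under 0.05 these lists held 3, 3, 2 and 1 genes over both genotypes, where 19.5% of all genes were. Lrpprc, which stabilises mitochondrial mRNAs, came nearest at 0.31 ± 0.11 (adjusted p = 0.0922). Tufm, the elongation factor Tu of mitochondria, stood at 0.0061 ± 0.10, Tfam, which packages mitochondrial DNA, at -0.21 ± 0.18, and Ppargc1a, the coactivator of mitochondrial biogenesis, at -0.31 ± 0.22, none of them past the threshold. In each genotype taken alone no gene of these 6 lists passed by edgeR, Gadd45gip1, Ngrn and Eral1 included. Of all genes 0.853% passed in controls and 1.38% in knockouts. At an unadjusted p under 0.05 the lists held, in the order given here, 1, 3, 4, 2, 2 and 1 genes in controls. In knockouts they held 2, 1, 0, 2, 2 and 2. Of all genes 14.2% and 14.3% were under that p in controls and knockouts. DESeq2 called Eral1 and the coactivator Pprc1 lower in controls and Ngrn higher in knockouts. Without controls 1 and 2, edgeR called Ngrn (0.39, adjusted p = 0.0280) and the regulator Yy1 (-0.86, adjusted p = 0.0435) in knockouts.

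Some of the mRNAs that this ribosome translates were lower in the cold. Of 12 measured mRNAs encoded in mitochondrial DNA, 6 fell in the cold over both genotypes and 0 rose, with a median change of -0.42, while the 70 ribosomal protein genes had a median of 0.0022. The 6 were Mt-nd4l (-1.08), Mt-atp8 (-0.90), Mt-nd5 (-0.69), Mt-nd3 (-0.57), Mt-nd2 (-0.56) and Mt-nd1 (-0.42), which encode subunits of complex I and, for Mt-atp8, of ATP synthase. Mt-co1, for the catalytic subunit of cytochrome oxidase, did not pass (-0.13 ± 0.10). In controls 2 of the 12 fell and in knockouts 3 of the 12. Of all genes 5.65% passed by edgeR over both genotypes, 0.853% in controls and 1.38% in knockouts. These transcripts lie on long precursors and share reads, so their counts are not independent. The difference between the medians was not tested.

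The cytosolic ribosome, which makes the mitochondrial ribosomal proteins, gave 1 gene higher, Rplp0 (0.30 ± 0.091, adjusted p = 0.0463), and 1 lower, Rpl34 (-0.24 ± 0.073, adjusted p = 0.0443), of 69 over both genotypes. DESeq2 called 3 of 69 over both genotypes, these 2 and Rpl41. Of all genes 5.65% passed there by edgeR and 7.04% by DESeq2. In each genotype alone 0 of 69 passed by either tool. At an unadjusted p under 0.05 there were 6 in controls and 2 in knockouts, where 14.2% and 14.3% of all genes were. Over both genotypes the median change of the 69 was -0.052.

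**Figure D5:**
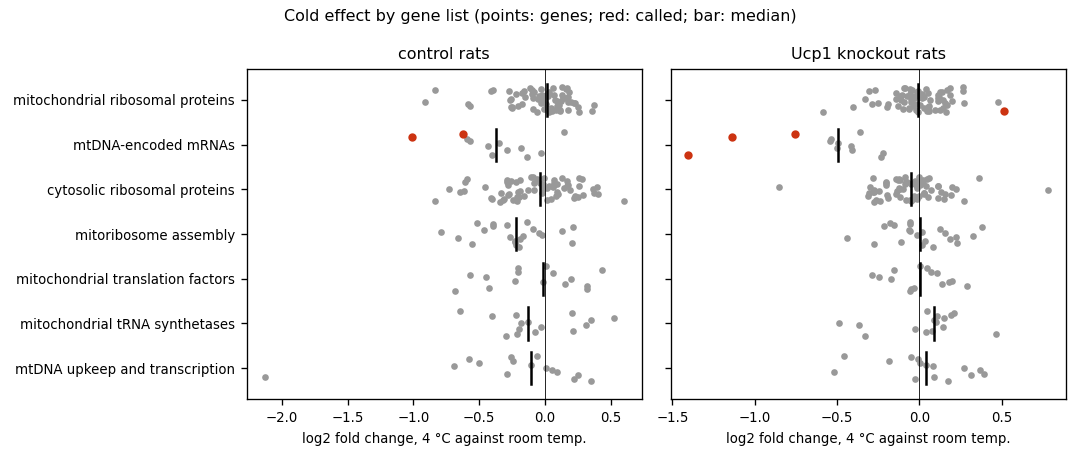
Log2 fold change of 4 °C against room temperature for each gene (points) of 7 lists, in control rats (left, n = 8 and 8) and Ucp1 knockout rats (right, n = 7 and 8), with genes past the threshold in red and the median of each list as a black bar. The median of the 70 mitochondrial ribosomal protein genes lies at 0.014 and -0.0066, while that of the 12 mRNAs encoded in mitochondrial DNA lies at -0.37 and -0.50.

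Some markers of other cell types passed in the cold as well, where 5.65% of all genes did by edgeR and 7.04% by DESeq2. Over both genotypes 4 of 9 immune markers, 3 of 4 erythrocyte marker rows and 1 of 8 adipocyte markers were higher and 1 of 6 endothelial markers was lower by edgeR. DESeq2 called 5 of 9 immune, 3 of 4 erythrocyte and 3 of 8 adipocyte markers higher and 1 of 6 endothelial markers lower. Of 7 fibroblast and tendon markers and 5 nerve markers 0 passed by either tool. At an unadjusted p under 0.05 there was 1 of each, where 19.5% of all genes were. The summed immune level ran from 80.3 to 301 CPM in room temperature controls, 199 to 417 in room temperature knockouts, 264 to 474 in cold controls and 268 to 507 CPM in cold knockouts. Summed erythrocyte levels ran from 336 to 659, 254 to 1079, 467 to 1082 and 444 to 2018 CPM in the same order, and adipocyte levels from 133 to 329, 168 to 310.0, 168 to 289 and 196 to 497 CPM. Of the muscle fibre markers 2 of 8 were higher, the slow myosin Myh7 and myoglobin, Mb. No marker was at 0 in any library outside room temperature controls, where 3 adipocyte, 1 erythrocyte and 1 fibroblast and tendon marker were at 0 in some library. The part of these cells in the changes of Mrpl14 and Mrpl51 was not tested.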

How the data were processed

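Libraries were made from total RNA with a QuantSeq 3′ kit, 1 per rat, per the labels' protocols. The authors deposited raw counts of reads per gene and normalized signal, their counts divided by 1 DESeq2 size factor per library. The deposited signal equalled the counts so divided to a relative difference of 5.23e-10 and was used only for gene symbols. Build Rnor 6.0 and DESeq2 1.22.2 are named in the submitters' processing notes, while for the aligner, the counter and strandedness the sources used here give nothing. The lowest total of a listed gene was 93 counts.

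Counts were scaled by TMM and tested with edgeR 4.0.16 (R 4.3.3) by its quasi-likelihood test, two-sided, with 1 mean per group over all 31 libraries (27 residual degrees of freedom). Genes passed filterByExpr (minimum count 10, minimum total 15), and Benjamini-Hochberg adjustment ran over 10082 genes with a threshold of 0.05. SE is the change divided by the root of F. Compared were the temperatures in each genotype and over both, knockout against control at each temperature, and the difference of the cold effects. Comparisons share groups, so they are not independent. Principal components used log2 CPM with a prior count of 2. The fit was run on simulated counts, drawn independently for each gene with the spread estimated from these data. They held neither the first component nor the distance of controls 1 and 2 from their group. That run therefore cannot show how the fit handles those features. Counts of rats of a group differed beyond sampling noise in all 105 pairs (lowest ratio of chi-square to its degrees of freedom, 5.23), a check only for repeated deposits of a single library.

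Members and gene lists were chosen with earlier results of these data known. Named in each comparison were members past the threshold, or the 3 with the smallest p where fewer than 3 passed, plus Mrpl12, Mrps12, Mrps22, Mrpl44, Mrps18a, Mrps18b, Mrps18c, Mrps30, Mrps36, Mrpl58 and the 3 highest and 3 lowest by level, and up to 3 genes of each other list. Genes outside this rule (Mrpl10, Mrpl27, Mrpl33, Mrpl43, Mrps6, Mrps11, Mrps28 and the others named for an extreme value, a printed promoter or a known role) were chosen after their values were seen. Alternatives were DESeq2 1.42.0, size factors by relative log expression, no filter, library sizes without mitochondrially encoded reads, only the compared groups, the first component as a covariate, leaving out controls 1 and 2 at room temperature, and leaving out each library. Sequences are from RefSeq, build GRCr8.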

Additional observations from a re-analysis of the deposited data

Results flagged for a closer look

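Among the 24 members named in any comparison, 7 of 96 group values had a sample set apart from the rest of its group by a gap wide for the group's range, where chance alone gives about 5%. Cold control 17 accounts for 4: it was the highest of its group for Mrpl15 (1149 CPM, the next 760.1) and Mrps12 (120.02 CPM, the next 82.3), and the lowest for Mrpl44 (35.5 CPM, the next 46.7) and Mrpl40 (0.665 CPM, the next 1.98). This library also had the lowest score on the first component. Control 4 at room temperature was the highest of its group for Mrpl14 (119 CPM, the next 101) and Mrpl12 (524 CPM, the next 445). Knockout 14 at room temperature was the lowest of its group for Mrps26 (12.4 CPM, the next 16.9). The causes were not tested.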

How the results depend on the processing

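The counts of members called were the same under every alternative in controls (0), in both comparisons of genotype (0) and in the difference of cold effects (0). In knockouts the count was 1, except 0 with only the groups compared in the fit, and 0 to 1 over the 31 fits without 1 library (0 without knockouts 14 and 15 at room temperature). Over both genotypes it was 2, except 5 with the first component as a covariate and 3 by DESeq2, which added Mrpl23 (-0.22), and it ran from 1 to 3 without 1 library. No change of a named member reversed with a call; of 4027 values of named members under other settings, 187 had the other sign and were called in neither. Counts over all genes moved more: in controls from 86 to 38 without controls 1 and 2 at room temperature, 379 with the covariate, 220 by DESeq2, and 36 to 154 without 1 library. In knockouts they moved from 139 to 379, 674 and 328 under the same settings, 53 with only the compared groups, and 56 to 231 without 1 library. Over both genotypes they moved from 570 to 1274 with the covariate. Knockout against control in the cold moved from 1 to 4, 8 and 8 under the first 3 settings. The causes were not tested. No paired analysis was possible because every rat has a number of its own and the groups share none. Depth limits the lowest genes, with totals of 311 counts for Mrpl1 and 337 for Mrps31 over all libraries, and their intervals leave changes of 1.5-fold possible.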
